A study of Mus musculus with 6 samples.

Results

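Fatty acids reach fat cells mostly by way of circulating lipoproteins, and 10 genes of that route were followed here in mouse inguinal white fat, which lies under the skin. They were Lpl, Gpihbp1, Lmf1, Angptl4, Vldlr, Cd36, Slc27a1, Cav1, Fabp4 and Fabp5, taken by gene symbol. All 10 were among the 54532 genes of the deposited count table, 1 row each, and all 10 were among the 16623 genes tested. The Cdo1AKO group comprised 3 samples from mice in which Cdo1, the gene of cysteine dioxygenase, was knocked out in adipose tissue, and the control group comprised 3 samples from Cdo1flox/flox mice, which the labels also call WT. Both groups ate a high fat diet for 15 weeks from the age of 8 weeks, so no group on another diet stands beside them. The Cre driver, the floxed exons and the sex of the mice are not given in the sources used here.

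Lipoprotein lipase, the product of Lpl, is made by adipocytes, folded with the help of the Lmf1 product in the endoplasmic reticulum, and carried by the Gpihbp1 product to the luminal face of capillaries, where it hydrolyses the triglycerides of lipoproteins. The Angptl4 product, secreted by adipocytes, inactivates the enzyme, and the Vldlr product is a receptor that binds lipoproteins rich in triglyceride. Fatty acids set free in this way are taken up with the help of the scavenger receptor CD36, the acyl-CoA synthetase and transporter FATP1 (Slc27a1) and caveolae, membrane pits built on caveolin 1 (Cav1), and are bound inside the cell by FABP4 and FABP5. Several of these genes, among them Lpl, Cd36, Slc27a1, Angptl4 and Fabp4, are known targets of the nuclear receptor PPARG. Cd36, Fabp4, Fabp5 and Cav1 are known in capillary endothelial cells as well as in adipocytes.

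Libraries held 16275184 to 19205804 counts. Adipocyte markers were abundant in each of them, with Adipoq (adiponectin) at 1489, 2797 and 1581 CPM in Cdo1AKO 1 to 3 and 3073, 2168 and 2601 CPM in control 1 to 3, where CPM (a gene's counts relative to the library size) uses library sizes scaled by TMM, a correction for differences in library composition. The targeted gene Cdo1 stood at 123, 391 and 134 CPM in Cdo1AKO 1 to 3, against 886, 432 and 630 CPM in control 1 to 3 (log2 fold change -1.59 ± 0.53, SE, adjusted p = 0.416, and -2.33 ± 0.33, adjusted p = 0.0719, without Cdo1AKO 2). Cdo1AKO 2 thus kept a level close to that of control 2. Cdo1AKO 2 and control 1 also lacked the lymph node and B cell transcripts that the other 4 libraries held. The median CPM of 9 such markers was 51.5, 0.45 and 54.4 in Cdo1AKO 1 to 3 and 0.245, 98.4 and 53.0 in control 1 to 3, and Glycam1 and Ccl21a had 0 counts in Cdo1AKO 2 and control 1. Fold changes of the 10 genes are given with and without Cdo1AKO 2. No gene of the 16623 passed an adjusted p of 0.05 by edgeR's quasi-likelihood test or by limma-voom (0% called higher and 0% called lower). By edgeR 1724 were at an unadjusted p under 0.05. DESeq2 gave a p-value for a larger set of 29966 genes and called 94 of them higher (0.314%) and 177 lower (0.591%).

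Of the 10 genes, 0 passed the edgeR test in either direction, as did 0 by DESeq2 and 0 by limma-voom. At an unadjusted p under 0.05 there was 1 by edgeR, Slc27a1, lower in Cdo1AKO, where the share of all tested genes that were lower at that level was 5.71% (4.66% were higher). The fold changes were positive for 5 genes and negative for 5, with a median of 0.0024 on the log2 scale, against 0.058 over all genes tested. This balance hid a split inside the Cdo1AKO group. In Cdo1AKO 1 and 3, 8 of the 10 genes stood below all 3 controls, a position held by 27.1% of all tested genes (27.9% stood above all 3), whereas in Cdo1AKO 2 a count of 9 of the 10 stood above all 3 controls, a position held by 36.3% of all tested genes. Both positions at once were held by Lpl, Lmf1, Angptl4, Vldlr, Cd36, Cav1 and Fabp4, and by 10.5% of all tested genes. Against controls 2 and 3 alone, the controls with lymph node transcripts, Cdo1AKO 1 and 3 were lower in 8 of the 10 (30.6% of all genes, with 31.3% higher). The genes were chosen with results of these data known, so these counts describe the 10 genes only.

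**Figure D1:**
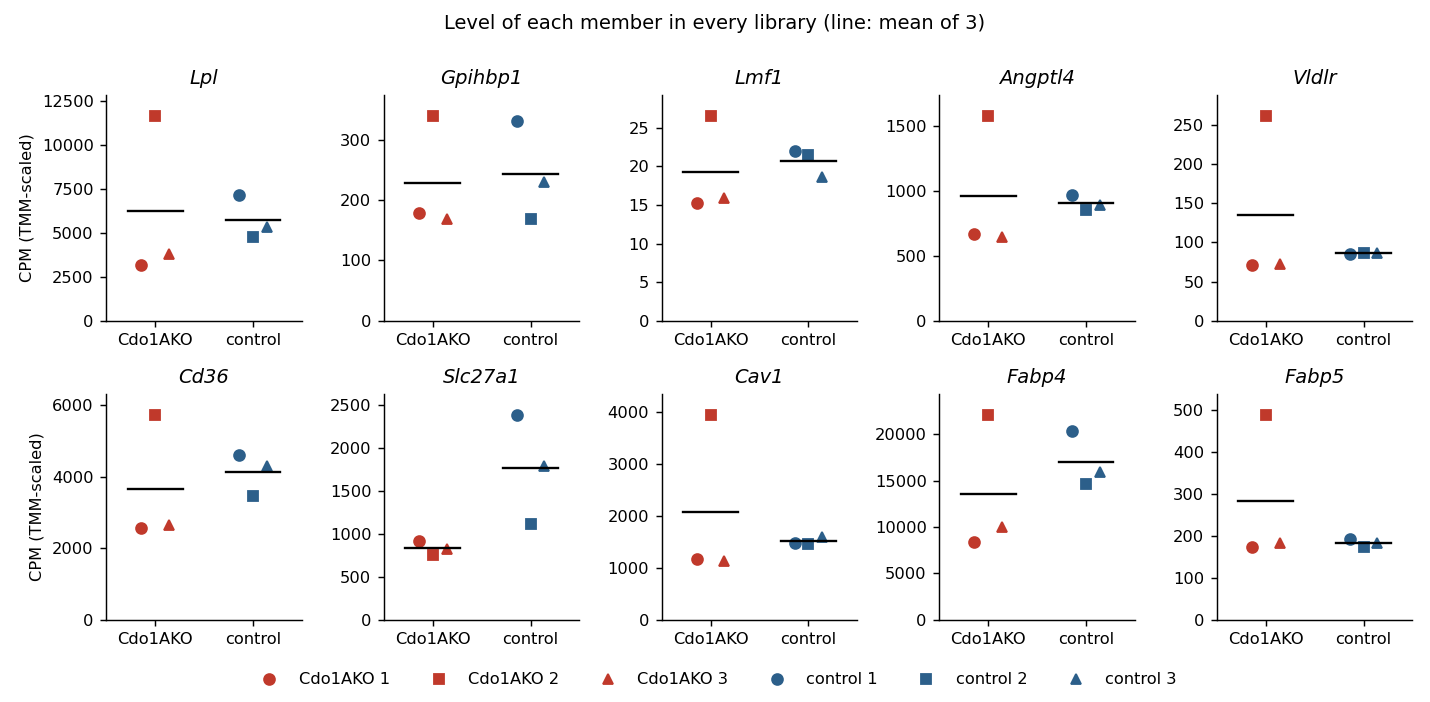
Level of each gene in CPM (vertical axes, from 0) in the 3 Cdo1AKO libraries (red) and the 3 control libraries (blue), with a line at the mean of each group. Cdo1AKO 2 (red square) was the highest of the 6 libraries for every gene except Slc27a1, where it was the lowest at 755 CPM; 31.7% of all tested genes were highest in that library.

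The RefSeq promoter windows of build GRCm38.p6 held 5 of the 10 genes, Lmf1, Vldlr, Cd36, Slc27a1 and Cav1, in 9 windows of 300 bases, each with 250 bases before and 50 bases after a start site. Those shown are the 3 windows of Slc27a1, the gene that stood lower in every Cdo1AKO library, that of Cd36, which stood lower in 2 of the 3, and 1 each of Vldlr and Cav1, the 2 members whose levels over the libraries were most alike. Capitals mark 4 motifs, searched on both strands, AGGTCA (a core element bound by PPARG and other nuclear receptors), CACGTG (the E-box), GGGCGG (the GC box) and CCAAT.
Slc27a1, chr8:71568621-71568920, plus strand: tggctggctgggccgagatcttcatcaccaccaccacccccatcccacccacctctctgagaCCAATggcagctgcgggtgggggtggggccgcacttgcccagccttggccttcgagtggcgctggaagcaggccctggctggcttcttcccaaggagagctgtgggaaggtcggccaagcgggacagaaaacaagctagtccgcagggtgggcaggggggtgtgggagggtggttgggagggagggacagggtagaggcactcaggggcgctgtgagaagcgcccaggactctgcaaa
Slc27a1, chr8:71569347-71569646, plus strand: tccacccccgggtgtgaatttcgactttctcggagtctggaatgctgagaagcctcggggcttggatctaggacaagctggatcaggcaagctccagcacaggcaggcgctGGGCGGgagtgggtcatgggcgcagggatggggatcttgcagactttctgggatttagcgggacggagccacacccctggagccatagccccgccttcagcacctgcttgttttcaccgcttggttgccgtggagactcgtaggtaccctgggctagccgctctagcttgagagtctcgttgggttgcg
Slc27a1, chr8:71570344-71570643, plus strand: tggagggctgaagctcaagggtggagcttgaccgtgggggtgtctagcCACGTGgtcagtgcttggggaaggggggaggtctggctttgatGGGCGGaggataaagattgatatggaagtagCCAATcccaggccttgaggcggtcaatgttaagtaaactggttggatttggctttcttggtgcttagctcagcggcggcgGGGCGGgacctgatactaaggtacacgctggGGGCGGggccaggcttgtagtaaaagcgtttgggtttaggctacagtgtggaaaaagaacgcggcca
Cd36, chr5:17835847-17836146, minus strand: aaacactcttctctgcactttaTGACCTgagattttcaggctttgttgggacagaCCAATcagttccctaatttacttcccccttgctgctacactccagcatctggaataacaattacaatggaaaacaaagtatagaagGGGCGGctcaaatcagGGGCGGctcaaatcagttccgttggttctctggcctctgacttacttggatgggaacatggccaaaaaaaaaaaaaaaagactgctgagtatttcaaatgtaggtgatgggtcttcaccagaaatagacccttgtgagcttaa
Vldlr, chr19:27216770-27217069, plus strand: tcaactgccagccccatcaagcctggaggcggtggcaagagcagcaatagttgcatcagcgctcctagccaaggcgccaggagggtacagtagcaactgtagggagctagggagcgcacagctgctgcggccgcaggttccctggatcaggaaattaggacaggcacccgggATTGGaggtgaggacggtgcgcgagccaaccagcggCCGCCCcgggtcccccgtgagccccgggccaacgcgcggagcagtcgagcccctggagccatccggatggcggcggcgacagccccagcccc
Cav1, chr6:17306085-17306384, plus strand: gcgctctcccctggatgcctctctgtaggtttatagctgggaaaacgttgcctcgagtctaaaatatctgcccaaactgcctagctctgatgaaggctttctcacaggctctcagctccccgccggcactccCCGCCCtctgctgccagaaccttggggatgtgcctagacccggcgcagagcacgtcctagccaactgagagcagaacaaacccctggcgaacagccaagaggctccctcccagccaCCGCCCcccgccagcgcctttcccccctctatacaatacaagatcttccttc

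Among the 9 windows AGGTCA was found in 1, that of Cd36, as its reverse complement TGACCT, and over all 32851 windows of this length it was found in 16.3%. A direct repeat of AGGTCA with any 1 base between the copies, the element that PPARG binds with its partner RXR, was in 0 of the 9 windows and in 0.0396% of all windows. CACGTG stood only in the Slc27a1 window that starts at 71570344, against 7.15% of all windows. GGGCGG occurred in the Slc27a1 windows that start at 71569347 and 71570344, in those of Cd36, Vldlr and Cav1 printed above and in that of Lmf1, which is not printed, against 35.7% of all windows. CCAAT occurred in the Slc27a1 windows that start at 71568621 and 71570344, in that of Cd36 and in that of Vldlr, against 37.4% of all windows. TATAAA, searched but not capitalised, occurred in that of Cav1, against 13.6% of all windows. In the GENCODE annotation, the transcript start nearest that of the Slc27a1 window at 71568621 lay 11 bases away and was protein-coding. For the Slc27a1 windows at 71569347 and 71570344 it lay 82 and 61 bases away, from a processed transcript and a retained intron transcript. For the Cd36 window it lay 179 bases away and was protein-coding. The motif matches are descriptions of the letters only.

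Lpl, the lipase itself (ENSMUSG00000015568, mm10 chromosome 8, 68880491 to 68907448, plus strand), had 3186, 11680 and 3790 CPM in Cdo1AKO 1 to 3, against 7133, 4758 and 5359 CPM in control 1 to 3. Cdo1AKO 1 and 3 were the lowest of the 6 libraries and Cdo1AKO 2 the highest, so the groups overlapped. The log2 fold change of 0.11 ± 0.60 (SE, 3 libraries per group, adjusted p = 0.957) did not pass. Without Cdo1AKO 2 it was -0.72, with adjusted p = 0.135. Gpihbp1 (ENSMUSG00000022579, chromosome 15, 75596628 to 75599481, plus strand), which holds the enzyme on the capillary wall, had 178, 340 and 168 CPM in Cdo1AKO 1 to 3, against 331, 168 and 229 CPM in control 1 to 3. Here the high libraries were Cdo1AKO 2 and control 1, 1 of each group and the 2 without lymph node transcripts, and the low ones reached 168 CPM in both groups. Gpihbp1 had a log2 fold change of -0.09 ± 0.37 (SE, adjusted p = 0.947), and -0.49 without Cdo1AKO 2 (adjusted p = 0.316). Lmf1 (ENSMUSG00000002279, chromosome 17, 25579174 to 25662826, plus strand), the chaperone of lipase folding, was the scarcest of the 10, at 15.3, 26.6 and 15.9 CPM in Cdo1AKO 1 to 3 and 22, 21.5 and 18.6 CPM in control 1 to 3. Its log2 fold change was -0.10 ± 0.25 (SE, adjusted p = 0.903), and -0.41 without Cdo1AKO 2 (adjusted p = 0.142). Its lowest count of 290 carries a 95% counting error of about 11.5%, the largest among the 10.

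Angptl4 (ENSMUSG00000002289, chromosome 17, 33773750 to 33781575, minus strand), the inhibitor of the lipase, had 663, 1577 and 647 CPM in Cdo1AKO 1 to 3, against 969, 853 and 888 CPM in control 1 to 3. The controls differed little among themselves (904 ± 59.3 CPM, SD, n = 3), Cdo1AKO 1 and 3 lay below them and Cdo1AKO 2 above. Its log2 fold change of 0.09 ± 0.39 (SE, adjusted p = 0.947) did not pass, and without Cdo1AKO 2 it was -0.46 (adjusted p = 0.0953). The ratio of Angptl4 to Lpl counts was 0.208, 0.135 and 0.171 in Cdo1AKO 1 to 3 and 0.136, 0.179 and 0.166 in control 1 to 3, and the groups overlapped. Vldlr (ENSMUSG00000024924, chromosome 19, 27216484 to 27254231, plus strand), the lipoprotein receptor, was at 71.2, 262 and 72.6 CPM in Cdo1AKO 1 to 3, against 85.3, 86.1 and 86.6 CPM in control 1 to 3. Of the 10 genes it had the most even controls and the greatest excess in Cdo1AKO 2, 3.05 times the control mean. Its log2 fold change was 0.65 ± 0.53 (SE, adjusted p = 0.694), and -0.26 without Cdo1AKO 2 (adjusted p = 0.144).

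Slc27a1 (ENSMUSG00000031808, chromosome 8, 71568882 to 71587302, plus strand), which couples fatty acid entry to activation with coenzyme A, had 912, 755 and 821 CPM in Cdo1AKO 1 to 3, against 2383, 1112 and 1787 CPM in control 1 to 3. It was the only gene of the 10 whose groups did not overlap, a position held by 9.74% of all tested genes (8.85% lay the other way), and control 2 came closest to Cdo1AKO. The means were 829 ± 78.7 CPM in Cdo1AKO and 1761 ± 636 CPM in controls (SD, n = 3). The Cdo1AKO libraries were thus close together and the controls spread about widely. The log2 fold change of -1.09 ± 0.33 (SE) had an unadjusted p = 0.0149 and an adjusted p = 0.381 by edgeR, and did not pass; DESeq2 gave an adjusted p = 0.0642. In the authors' deposited table the log2 fold change was -1.09 with adjusted p = 0.0611, and 0.655% of the genes with an adjusted p there were called lower and 0.346% higher. Unlike the other members, Slc27a1 was lower in both strata. In the libraries with lymph node transcripts, Cdo1AKO 1 and 3 over controls 2 and 3, the log2 ratio of mean CPM was -0.74, and between the pair without them, Cdo1AKO 2 over control 1, it was -1.66. For the other 9 genes that second ratio lay above 0, from 0.038 for Gpihbp1 to 1.62 for Vldlr; it compares 1 library with 1 library and has no replicate check.

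Cd36 (ENSMUSG00000002944, chromosome 5, 17781690 to 17888801, minus strand), the fatty acid receptor of the cell surface, had 2570, 5742 and 2644 CPM in Cdo1AKO 1 to 3, against 4616, 3459 and 4303 CPM in control 1 to 3. As with Lpl, Cdo1AKO 1 and 3 were the lowest libraries and Cdo1AKO 2 the highest. The log2 fold change was -0.18 ± 0.43 (SE, adjusted p = 0.904), and -0.66 without Cdo1AKO 2 (adjusted p = 0.108). Cav1 (ENSMUSG00000007655, chromosome 6, 17306335 to 17341452, plus strand) was at 1161, 3939 and 1132 CPM in Cdo1AKO 1 to 3, against 1478, 1447 and 1592 CPM in control 1 to 3. Cdo1AKO 2 had 2.62 times the control mean, and the other Cdo1AKO libraries lay below every control. Cav1 had a log2 fold change of 0.46 ± 0.54 (SE, adjusted p = 0.786), and -0.39 without Cdo1AKO 2 (adjusted p = 0.116). A gene on the opposite strand, Gm15581, overlaps Cav1 and had at most 6 counts in a library; no other member overlapped a gene of the table.

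Fabp4 (ENSMUSG00000062515, chromosome 3, 10204088 to 10208576, minus strand), the main fatty acid binding protein of adipocytes, took 0.934%, 1.9% and 1.13% of all counts in Cdo1AKO 1 to 3, against 1.86%, 1.52% and 1.55% in control 1 to 3. In CPM it had 8372, 22090 and 10040 in Cdo1AKO 1 to 3, against 20360, 14600 and 15910 in control 1 to 3. Cdo1AKO 1 and 3 were below every control, and Cdo1AKO 2 was above the highest of them. For Fabp4 the log2 fold change was -0.33 ± 0.60 (SE, adjusted p = 0.866), and -0.88 without Cdo1AKO 2 (adjusted p = 0.111). Fabp5 (ENSMUSG00000027533, chromosome 3, 10012548 to 10016607, plus strand), its relative and neighbour on the chromosome, had 175, 490 and 183 CPM in Cdo1AKO 1 to 3, against 192, 175 and 184 CPM in control 1 to 3. Unlike Fabp4, it lay within the range of the controls in Cdo1AKO 3 and level with the lowest of them, control 2, in Cdo1AKO 1. That of Fabp5 was 0.62 ± 0.42 (SE, adjusted p = 0.656), and -0.04 without Cdo1AKO 2 (adjusted p = 0.812). The table's pseudogene rows described as copies of Fabp5 had at most 1 count in a library, so few counts went to them.

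**Figure D2:**
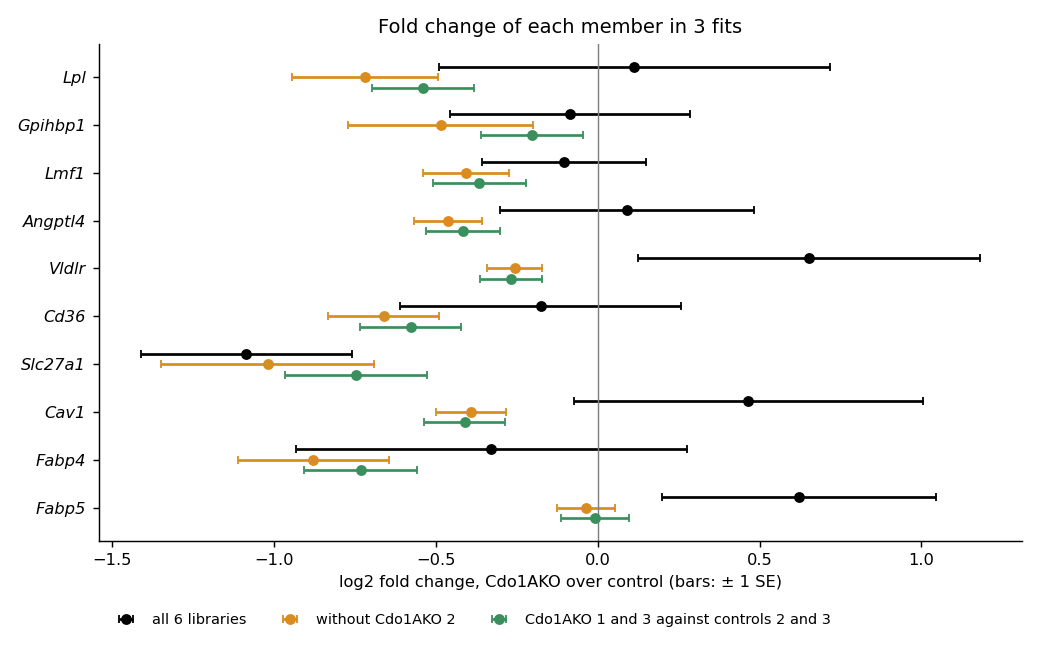
Log2 fold change of each gene, Cdo1AKO over control, with bars of 1 SE, from the fit on all 6 libraries (black), without Cdo1AKO 2 (orange), and on Cdo1AKO 1 and 3 against controls 2 and 3, the libraries with lymph node transcripts (green). All 10 values lay below 0 in the orange and green fits, where Slc27a1 was at -1.02 and -0.75.

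Without Cdo1AKO 2 all 10 fold changes were negative, with a median of -0.47 on the log2 scale against 0.012 over all genes tested. Of the 10, 8 were lower at an unadjusted p under 0.05, where the share of all tested genes was 15.5% (11.8% were higher), and 0 passed after adjustment, where 0% of all genes were called. Gpihbp1 and Fabp5 were the exceptions. In the libraries with lymph node transcripts, a comparison of 2 Cdo1AKO with 2 control libraries, 2 of the 10 were called lower after adjustment, against 7.7% of all tested genes called lower and 7.65% called higher. At an unadjusted p under 0.05 there were 8 of the 10 lower, against 15.7% of all genes lower and 16.2% higher. The 2 that passed after adjustment were Fabp4, with a log2 fold change of -0.73 ± 0.17 (SE, adjusted p = 0.0337), and Cd36, with -0.58 ± 0.16 (SE, adjusted p = 0.0488). Angptl4 (adjusted p = 0.0504), Lpl (0.0606) and Slc27a1 (0.0611) were next by the same edgeR test. When the lymph node transcripts were instead a term in the fit on all 6 libraries, 0 of the 10 were called, and Slc27a1 had -1.04 ± 0.29 (SE, adjusted p = 0.0933). In that fit 1.87% of all genes were called lower and 2.26% higher.

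Markers of the cells that express these genes moved with the libraries as well. The 8 adipocyte markers, all measured and none at 0, summed to 11890, 21060 and 11710 CPM in Cdo1AKO 1 to 3, against 23360, 17230 and 20310 CPM in control 1 to 3. Single adipocyte markers differed in Cdo1AKO 2. Cidec had 6099 CPM there, against 4910, 3062 and 4124 CPM in control 1 to 3. Adrb3 had 94.7 CPM there, against 564, 445 and 513 CPM. In the fit on all 6 libraries all 8 fold changes were negative, with a median of -0.49 on the log2 scale, and 0 passed. The 10 markers of capillary endothelium, likewise all measured and none at 0, summed to 1481, 2821 and 1373 CPM in Cdo1AKO, against 2025, 1565 and 1780 CPM in controls. Cdo1AKO 1 and 3 were therefore the lowest libraries for adipocyte and endothelial markers alike, and Cdo1AKO 2 the highest for endothelial markers only. The 9 macrophage markers, none at 0, summed to 884, 921 and 934 CPM in Cdo1AKO, against 602, 802 and 688 CPM in controls. This sum was higher in every Cdo1AKO library, and Lyz2 was its largest part. Lyz2 had 444, 302 and 475 CPM in Cdo1AKO, against 180, 482 and 343.5 CPM in controls, with overlap. Mrc1, C1qa, C1qb and C1qc overlapped between the groups as well. All 9 fold changes were positive, with a median of 0.46 on the log2 scale, and 0 passed. The 6 markers of adipocyte progenitors, none at 0, summed to 10290, 11960 and 9402 CPM in Cdo1AKO, against 20360, 13010 and 17370 CPM in controls. This sum was lower in every Cdo1AKO library, but Gsn made up most of it. Gsn had 9766, 11260 and 8850 CPM in Cdo1AKO, against 19610, 12580 and 16790 CPM in controls. Of the 6 progenitor markers, 3 had positive and 3 had negative fold changes, with a median of -0.022 on the log2 scale, and 0 passed. The 8 skeletal muscle markers summed to 141, 203 and 115 CPM in Cdo1AKO, against 121, 46.9 and 75.5 CPM in controls, with the highest sum in Cdo1AKO 2. Most of that sum was Acta1, a skeletal muscle actin, at 131, 189 and 104 CPM in Cdo1AKO, against 118, 40.6 and 71.2 CPM in controls, while Myh4 had 0 counts in all 6 libraries and Ckm in 5. All 4 muscle markers tested had positive fold changes, with a median of 0.99 on the log2 scale, and 0 passed. The 7 epithelial markers summed to at most 5.48 CPM in a Cdo1AKO library and 4.50 CPM in a control library, with Krt8 at 0 counts in 4 libraries. In bulk tissue, fewer cells of a type and less RNA per cell cannot be told apart, and the part of these markers in the members' levels was not tested.

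**Figure D3:**
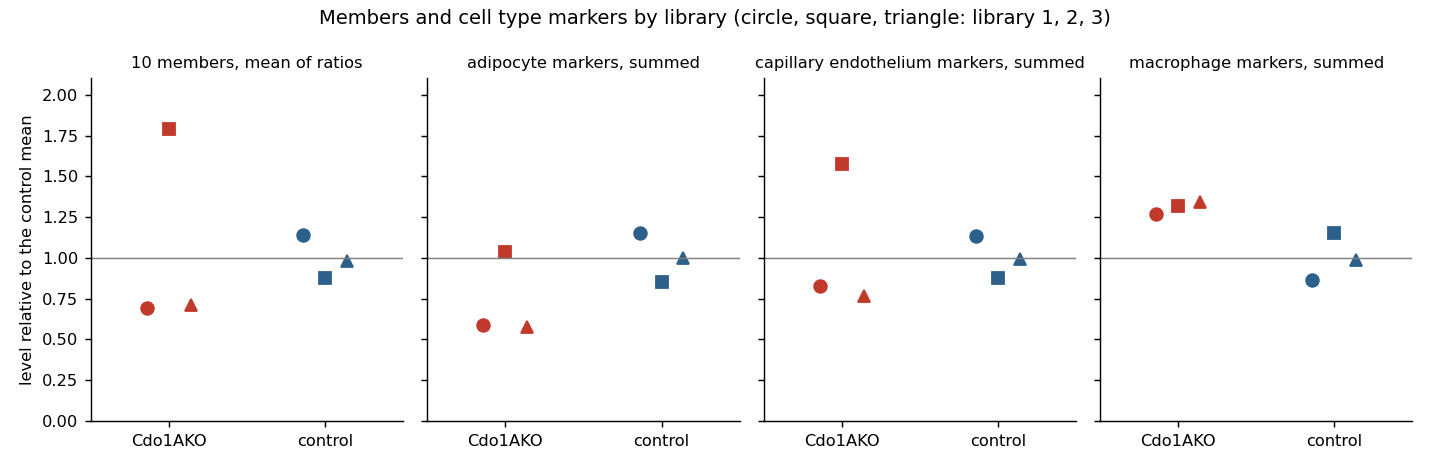
Level relative to the control mean (vertical axis, shared) of the 10 genes (mean of their ratios) and of the summed CPM of adipocyte, capillary endothelium and macrophage markers, for the Cdo1AKO (red) and control (blue) libraries. Cdo1AKO 2 stood at 1.79 for the 10 genes, 1.04 for the sum of adipocyte markers and 1.58 for the sum of endothelial markers.

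Set against Plin1, which encodes perilipin 1, a coat protein of adipocyte lipid droplets, Cdo1AKO 1 and 3 stood closer to the controls. The ratio of Lpl to Plin1 counts was 2.1, 4.46 and 2.76 in Cdo1AKO 1 to 3, against 2.61, 2.1 and 2.08 in control 1 to 3. That of Fabp4 to Plin1 was 5.50, 8.44 and 7.31 in Cdo1AKO, against 7.46, 6.43 and 6.17 in controls. Slc27a1 to Plin1 gave 0.600, 0.288 and 0.598 in Cdo1AKO, against 0.873, 0.490 and 0.693 in controls. All 3 ratios overlapped between the groups, although Fabp4 to Plin1 was lowest in Cdo1AKO 1 and Slc27a1 to Plin1 lowest in Cdo1AKO 2. For Gpihbp1, which endothelial cells make, the ratio to the endothelial marker Pecam1 was 0.705, 0.695 and 0.632 in Cdo1AKO, against 1.28, 0.649 and 0.813 in controls, with control 1 apart from the other libraries.

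Ratios between 2 members in the same library need no scaling factor and were compared for all 45 pairs. In 17 pairs the ratio did not overlap between the groups, against 19.3% of all pairs of tested genes, and pairs that share a gene are not independent of each other. Fabp5 was a partner in 6 of the 17. So was Vldlr, against Lpl, Angptl4, Cd36, Slc27a1, Cav1 and Fabp4. Fabp4 was a partner with Lpl, Angptl4, Vldlr, Cav1 and Fabp5. The ratio of Fabp5 to Fabp4 was 0.0209, 0.0222 and 0.0183 in Cdo1AKO 1 to 3, against 0.00942, 0.012 and 0.0116 in control 1 to 3. All Cdo1AKO libraries, Cdo1AKO 2 included, thus lay together above the controls, and the mean ratio was 1.86 times that of controls. Fabp5 to Cd36 gave 0.068, 0.0853 and 0.0693 in Cdo1AKO, against 0.0415, 0.0505 and 0.0428 in controls, 1.65 times as high on average. Vldlr and Cav1 were each higher relative to Fabp4 and to Cd36 in every Cdo1AKO library, with mean ratios 1.41 to 1.78 times those of controls. Slc27a1 was lower relative to Gpihbp1, Fabp5 and Vldlr in every Cdo1AKO library. Its ratios with Lpl, Lmf1, Angptl4, Cd36, Cav1 and Fabp4 overlapped between the groups. Gpihbp1 to Slc27a1 was 0.196, 0.45 and 0.204 in Cdo1AKO, against 0.139, 0.151 and 0.128 in controls. These pairs were picked out after their values were seen and carry no test.

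**Figure D4:**
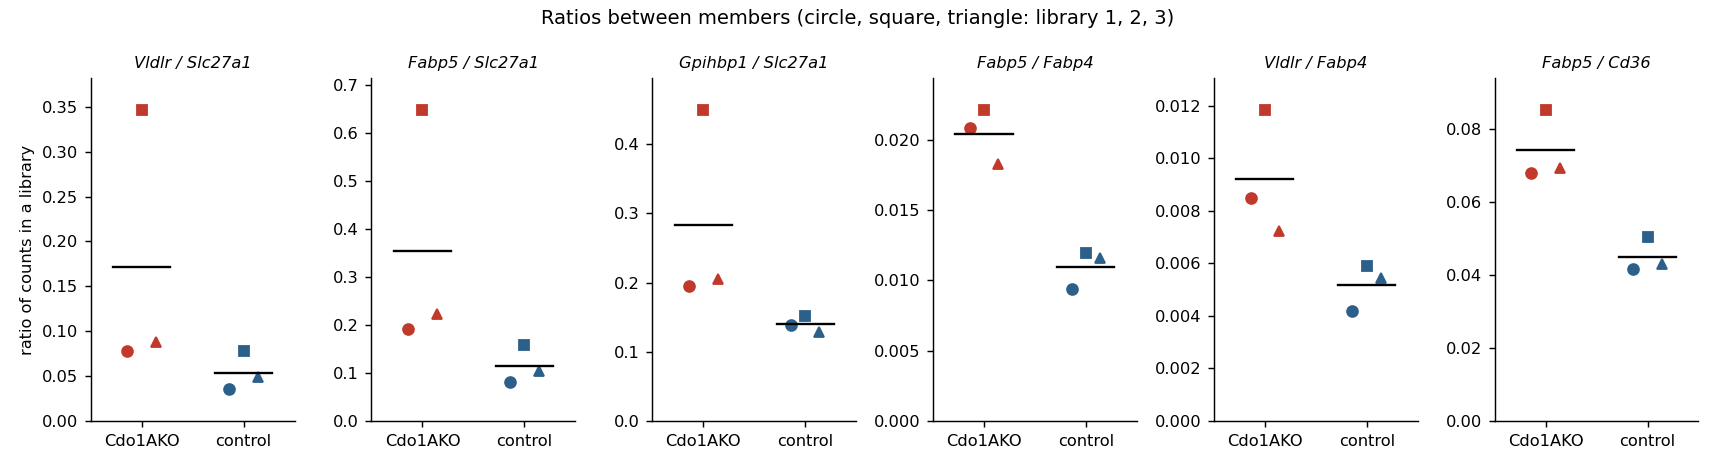
Ratio of the counts of 2 genes in the same library (vertical axes, from 0), for the 6 of 17 non-overlapping pairs with the greatest difference in mean ratio, in Cdo1AKO (red) and control (blue) libraries, with a line at the mean. The ratio of Fabp5 to Fabp4 lay between 0.0183 and 0.0222 in Cdo1AKO and between 0.00942 and 0.012 in controls.

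Per kilobase of gene length the 10 genes spanned a wide range of levels. The lengths are those listed with the counts and were not compared with transcript lengths. That of Fabp4, 4489 bases, covers its whole span on the chromosome, from 10204088 to 10208576. The levels per kilobase and the order of the genes depend on these lengths. The mean over all 6 libraries was 3392 CPM per kilobase for Fabp4, 1083 for Cd36, 571 for Lpl, 520 for Cav1, 284 for Angptl4, 222 for Slc27a1, 92.3 for Gpihbp1, 65.4 for Fabp5, 11 for Vldlr and 1.48 for Lmf1. Fabp4 was above Cd36, Fabp5 above Vldlr and Vldlr above Lmf1 without overlap between the libraries. Cd36 was above Lpl and Cav1 above Angptl4 in 6 of 6 libraries, though their ranges overlapped. Lpl and Cav1, and Angptl4 and Slc27a1, changed places in 2 of the 6 libraries. Slc27a1 and Gpihbp1, and Gpihbp1 and Fabp5, were each in order in 5 of 6. Angptl4 and Slc27a1 changed places in controls 1 and 3 only, and Slc27a1 and Gpihbp1 in Cdo1AKO 2 only. This order pools both groups, and differences in level between genes were not tested.

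**Figure D5:**
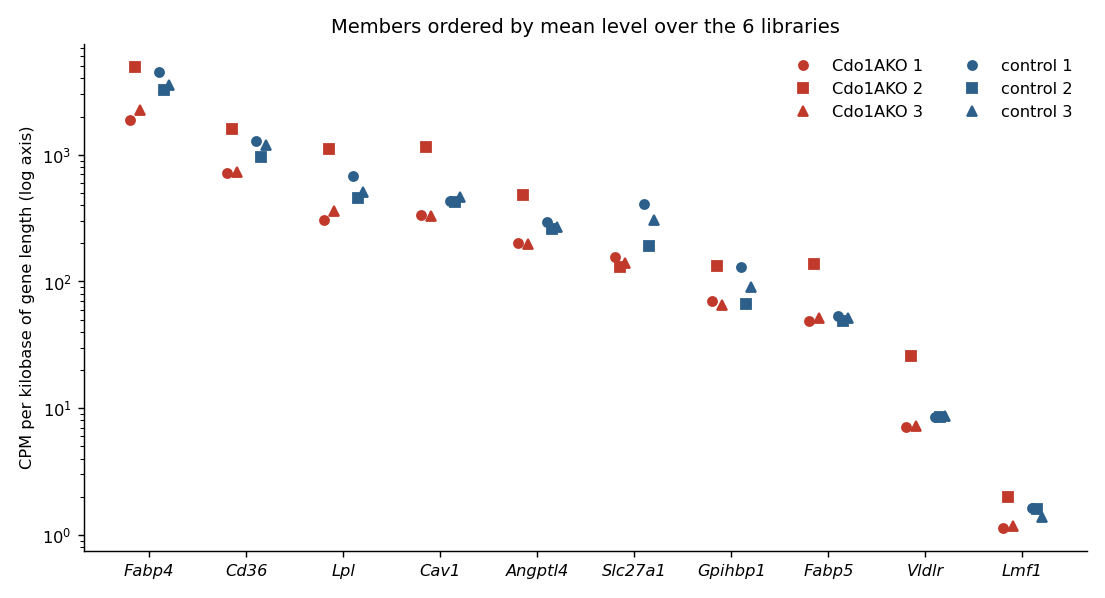
Level of each gene in CPM per kilobase of gene length (log axis) in the 6 libraries, Cdo1AKO in red left of control in blue, ordered by the mean over all libraries. Fabp4 averaged 3392 and Lmf1 1.48 CPM per kilobase.

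Other genes of the route were read from 3 lists. Of 21 partners and regulators of lipoprotein lipase, 18 were tested and 0 passed, with a median log2 fold change of 0.12 against 0.058 over all genes; 4 of the 18 were lower and 0 higher at an unadjusted p under 0.05, against 5.71% of all tested genes lower and 4.66% higher. Those with the smallest p were Pcsk5 and Pcsk6, proprotein convertases, and Lipg, the endothelial lipase. Pcsk5 had 28.9, 19.9 and 26.2 CPM in Cdo1AKO 1 to 3, against 103, 34.6 and 69.0 CPM in control 1 to 3, and its groups did not overlap (log2 fold change -1.46 ± 0.40, SE, adjusted p = 0.361). Lipg had 2.15, 3.66 and 2.58 CPM in Cdo1AKO, against 9.01, 4.06 and 6.10 CPM in controls (-1.19 ± 0.38, adjusted p = 0.396), also without overlap. For Pcsk6 the values were 71.2, 91.4 and 54.1 CPM in Cdo1AKO, against 158, 90.8 and 124 CPM in controls (-0.79 ± 0.28, adjusted p = 0.428), with Cdo1AKO 2 just above control 2.

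Of 17 genes of fatty acid transport and binding 8 were tested, and 0 passed either adjustment or an unadjusted p of 0.05, with a median of 0.13. Those with the smallest p were Mfsd2a, a transporter of lysophospholipids, with -1.72 ± 0.76 (log2 fold change, SE, adjusted p = 0.515), Slc27a3, a relative of Slc27a1, with 0.54 ± 0.24 (adjusted p = 0.525), and Olr1, a receptor for oxidised lipoprotein, with 2.21 ± 1.06 (adjusted p = 0.54). Mfsd2a and Olr1 were scarce, at 0.731 ± 0.331 and 0.963 ± 0.446 CPM in Cdo1AKO, against 2.44 ± 1.80 and 0.199 ± 0.292 CPM in controls (SD, n = 3). Slc27a3 had 14.9, 9.57 and 15.0 CPM in Cdo1AKO 1 to 3, against 10.6, 8.49 and 8.19 CPM in control 1 to 3. Among the Cdo1AKO libraries Slc27a3 was lowest in Cdo1AKO 2. Slc27a4, another relative of Slc27a1, was not among those with the smallest p (0.055 ± 0.26, adjusted p = 0.952 by edgeR). It had 31.7, 57.4 and 32.3 CPM in Cdo1AKO 1 to 3, against 38.6, 37.4 and 40.8 CPM in control 1 to 3. Slc27a4 was high in Cdo1AKO 2, as most of the 10 genes were. Fabp1, Fabp2, Fabp3, Fabp6, Fabp7 and Fabp12 and Slc27a2, Slc27a5 and Slc27a6 did not pass the filter and stood at or below 0.964 CPM in every library. Fabp6 had 0 counts in all 6 libraries, which allows up to 3 counts or 0.15 to 0.193 CPM in a library, for counting error only. Of 9 genes of the caveola coat 8 were tested and 0 passed either level, with a median of 0.084. Cavin3 had 113, 587 and 107 CPM in Cdo1AKO 1 to 3, against 147, 127 and 120 CPM in control 1 to 3, so that it was high in Cdo1AKO 2 and under all controls in the other Cdo1AKO libraries, as Cav1 was. Its log2 fold change was 1.03 ± 0.69 (SE, adjusted p = 0.651; -0.26 without Cdo1AKO 2), that of Pacsin3 -0.27 ± 0.25 (adjusted p = 0.723) and that of Cavin2 -0.47 ± 0.43 (adjusted p = 0.726; -1.08 without Cdo1AKO 2). Without Cdo1AKO 2 the median of the caveola list was -0.47, and all 8 values were negative. In the 4 libraries with lymph node transcripts, 4 of 18 tested genes of the lipase list were called lower, 1 of 9 of the transport list lower and 2 higher, and 3 of 8 of the caveola list lower, against 7.7% of all genes lower and 7.65% higher.

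Pparg itself had 118, 162 and 115 CPM in Cdo1AKO 1 to 3, against 253, 114 and 170 CPM in control 1 to 3, and control 2 was the lowest of the 6 (log2 fold change -0.44 ± 0.32, SE, adjusted p = 0.669). In Cdo1AKO 2 Pparg was above Cdo1AKO 1 and 3 and control 2 but, unlike Lpl, Cd36 and Fabp4, below controls 1 and 3. Without Cdo1AKO 2 its log2 fold change was -0.62 ± 0.33 (SE, adjusted p = 0.28 by edgeR). The part of Pparg in the members' levels was not tested. The likeness of 2 genes was measured as the root mean square difference of their log2 CPM over the 6 libraries after each was centred on its mean. Among the 10 members the closest pair was Vldlr and Cav1 (0.0945 on the log2 scale), followed by Cd36 and Fabp4 (0.14), Vldlr and Fabp5 (0.149) and Angptl4 and Cd36 (0.15). Among 11196 protein-coding genes, those closest to Lpl were 4931406C07Rik (0.0761), Slc2a13 and Tmem205 (0.0911 each). Those closest to Gpihbp1 were Adgrf5 (0.0599), Adamts12 (0.0614) and Plxna2 (0.0697). Adgrf5, an adhesion receptor, had 313, 563 and 313 CPM in Cdo1AKO 1 to 3, against 576, 310 and 422 CPM in control 1 to 3, high in Cdo1AKO 2 and control 1 as Gpihbp1 was. Over 6 libraries such likeness is a description and carries no test.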

How the data were processed

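Per the file headers, the authors deposited raw counts for 6 samples in a single table, beside FPKM values and their own comparison as log2 fold changes and p-values. The submitters' processing notes name mm10 as the build and, as tools with no roles, DESeq2 1.20.0, HISAT2 2.0.5 and featureCounts 1.5.0-p3. The strand setting of the counting was not given in those notes or in the labels. The deposited FPKM served only to check the listed gene lengths, which reproduce it from the counts up to 1 constant per library.

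Of 54532 genes, 16623 passed filterByExpr by group. Counts were scaled by TMM and tested with edgeR 4.0.16 (quasi-likelihood, group as the only term) in R 4.3.3, with Benjamini-Hochberg adjustment over all genes tested and a threshold of 0.05. SE is that of the log2 fold change. Alternatives were limma-voom (limma 3.58.1), DESeq2 1.42.0, other scaling and filters, a replicate block, each library left out, and a lymph node term or subset (median CPM of 9 markers above 5). Likeness used protein-coding genes with a mean of at least 5 CPM and a pseudocount of 0.5 CPM. The 10 genes, the lists and the lymph node term were chosen with earlier results of these data known. Genes named beyond the 10 were the 3 of each list with the smallest p, the 3 most like Lpl and Gpihbp1, Cdo1, Pparg and cell markers. Slc27a4 was named as well, outside that rule. GENCODE M21, on the same build, gives the table's coordinates for 8 of the 10 genes. Samples took their groups from their titles, and nothing in the labels ties each to its own mouse. All p-values therefore rest on the spread between samples, which may be technical.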

Additional observations from a re-analysis of the deposited data

How the results depend on the processing

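The count of genes called over all genes was 0 by edgeR with group as the only term and stayed 0 under other scaling, other filters, limma-voom, the replicate block and each library left out, while it was 271 by DESeq2, 686 with the lymph node term and 2617 in the 4 libraries with lymph node transcripts. Samples that share a number deviated together only for number 3 (correlations over genes of -0.657, -0.661 and 0.423 for numbers 1, 2 and 3). Cdo1AKO 1 and control 3, of unlike numbers, had 0.465. The numbers were therefore not taken as pairs. With the replicate block 0 genes passed by edgeR, with 909 at an unadjusted p under 0.05. The log2 fold change of Lpl turned to -0.10 by limma-voom, -0.14 with the replicate block, -0.13 with the lymph node term and -0.54 in the 4 libraries, and that of Angptl4 to -0.024, -0.047, -0.044 and -0.42 in the same order. In the 4 libraries Vldlr was at -0.27, Cav1 at -0.41 and Fabp5 at -0.0082, and Cd36 (-0.58) and Fabp4 (-0.73) passed there. With each library left out in turn, the values ran from -0.72 to 0.43 for Lpl, -0.49 to 0.19 for Gpihbp1, -0.41 to 0.038 for Lmf1, -0.46 to 0.31 for Angptl4, -0.26 to 0.96 for Vldlr, -0.66 to 0.025 for Cd36, -1.33 to -0.81 for Slc27a1, -0.39 to 0.76 for Cav1, -0.88 to -0.08 for Fabp4 and -0.035 to 0.88 for Fabp5, the lowest of each being without Cdo1AKO 2 except for Slc27a1 (without control 2). Only Slc27a1 and Fabp4 kept their sign in every alternative run. Library totals without a scaling factor turned no member. The cause of these shifts was not tested. Lists were compared by counts and medians only, and no gene set test was run. Depth limits Lmf1 most among the 10.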
